A study of Mus musculus with 8 samples.

Results

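T follicular helper (Tfh) cells sorted from immunized mice were compared with Th1 cells made in culture. The comparison took 4 of the 8 expression arrays of the study, 2 of Tfh and 2 of Th1 cells, and every probe set on them that is paired with 1 gene symbol. One probe set was kept for each of 18193 genes, and 11178 genes had a signal high enough to be tested. The other arrays, 2 of Th2 and 2 of Th17 cultures, enter only where they are named and in the estimate of the spread.

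The Tfh cells were CD4+CXCR5+ cells from spleens of C57BL/6 mice, purified by flow cytometry on day 7 after immunization with the protein KLH and then stimulated for 4 h with anti-CD3. The Th1 cells began as naive CD4 T cells from spleen and lymph node of OT-II mice aged 6 to 8 weeks. OT-II mice carry a transgenic T cell receptor on a C57BL/6 background, so the Th1 cells shared 1 antigen specificity. They were activated with the OT-II peptide and antigen-presenting cells and kept for 5 days with IL-12 at 10 ng/ml and anti-IL-4. Cell type, mouse strain, source, last labelled stimulus and time in culture all differ between the groups and cannot be told apart. Whether the Th1 cells were restimulated is not given, and Y-linked genes differed as well, as described below. Whether the replicates are separate animals or cultures is not given in the labels, so the p-values measure the spread between arrays, which may be technical. The precision is limited by the number of arrays.

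Tfh cells enter B cell follicles through the chemokine receptor CXCR5 and help B cells make antibody, under the control of the repressor Bcl6. Th1 cells arise when IL-12 acts through Stat4 and the T-box factor T-bet (Tbx21), and they act on macrophages and infected cells by secreting interferon-gamma. Bcl6 and the repressor Blimp-1 (Prdm1) oppose each other in T cells.

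Most tested genes had higher deposited values in Tfh. Values are on the log2 scale, so a difference of 1 is a doubling. The Tfh arrays had their 65th percentiles at 6.91 and 6.98, against 5.26 and 5.23 in the Th1 arrays, and the median tested gene was 0.85 higher in Tfh. A gene was called when its limma adjusted p was under 0.05 and the difference was at least 1. As deposited, 4780 genes were higher in Tfh (42.8% of those tested) and 689 lower (6.16%). The order of the counts turned with the scaling. Quantile normalization over the 8 arrays, which gives every array 1 distribution, left 1747 higher and 2378 lower, and a shift to a common array median left 3544 and 1160. A call is counted below only when it was made in the same direction under these 3 scalings, unless stated otherwise. This held for 1739 genes higher in Tfh (15.6%) and 685 lower (6.13%). The other scalings move Tfh values down for most genes, so the requirement hardly tests the genes lower in Tfh. It also leaves out genes that were called lower only after rescaling. A count of 0 lower below means 0 in all 3 scalings and 0 as deposited, and quantile normalization could still call members lower. List counts below are to be set against the shares of 15.6% and 6.13%.

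**Figure D1:**
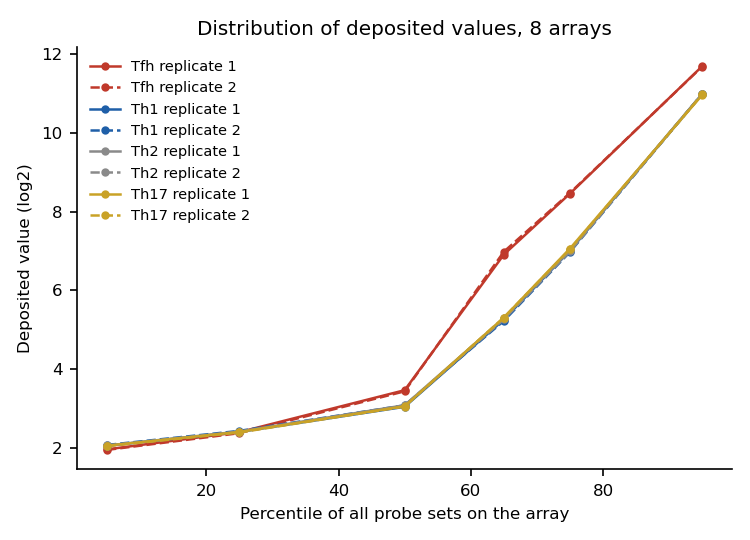
Deposited log2 value (vertical axis) at 6 percentiles of all probe sets (horizontal axis), 1 line for each of the 8 arrays. The 2 Tfh lines lie together above all 6 cultured arrays from the 50th percentile up (6.91 and 6.98 against 5.23 to 5.31 at the 65th).

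Replicates of the groups were unequally close. The Tfh arrays differed by more than 1 log2 unit at 11 tested genes and the Th1 arrays at 1435. Both groups carried T cell transcripts. Cd4 measured 11.83 and 11.84 in Tfh against 9.93 and 9.44 in Th1, and Cd3e, a chain of the T cell receptor complex, at 13.03 and 12.97 against 10.61 and 10.63. In bulk RNA, fewer cells of a type and less RNA per cell cannot be told apart.

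**Figure D2:**
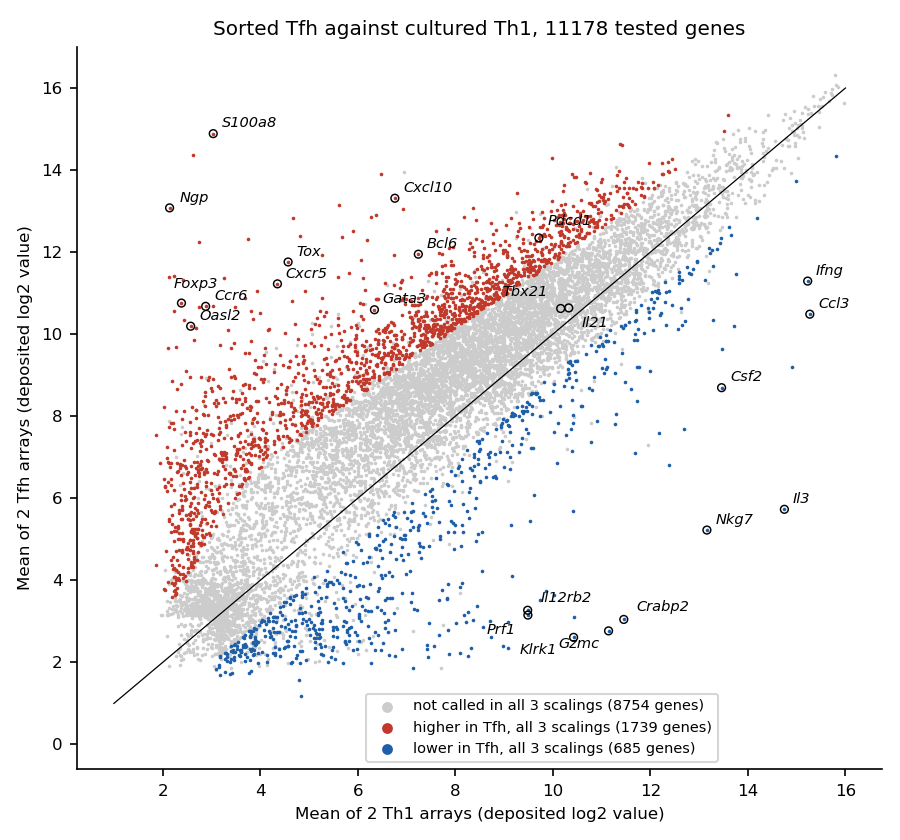
Mean deposited log2 value of the 2 Tfh arrays (vertical axis) against that of the 2 Th1 arrays (horizontal axis), 1 point for each of 11178 tested genes, with the line of equal values. Red and blue points are the 1739 and 685 genes called higher and lower in Tfh in all 3 scalings; Il3, Nkg7 and Gzmc lie far below the line and S100a8, Ngp and Foxp3 far above it, while Tbx21 and Il21 lie near it.

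The sequences below are shown because interferon-stimulated genes, described next, were mostly higher in Tfh while the Ifitm genes among them were lower. They are the promoters of Ifit1, Rsad2 and Ifit3, which were higher in Tfh, and of Ifitm3, which was lower. These 4 were chosen after their values were seen, as members of the list with the motif. Each runs 5′ to 3′ from 250 bases before the gene's start to 50 after it, in RefSeq's GRCm38.p6 table, at chr19:34640639-34640938 (plus strand), chr12:26456403-26456702 (minus strand), chr19:34583279-34583578 (plus strand) and chr7:141010695-141010994 (minus strand). Capitals mark matches to the interferon-stimulated response element, searched as 2 copies of GAAA separated by any 2 bases, on both strands, with overlapping matches allowed.
Ifit1: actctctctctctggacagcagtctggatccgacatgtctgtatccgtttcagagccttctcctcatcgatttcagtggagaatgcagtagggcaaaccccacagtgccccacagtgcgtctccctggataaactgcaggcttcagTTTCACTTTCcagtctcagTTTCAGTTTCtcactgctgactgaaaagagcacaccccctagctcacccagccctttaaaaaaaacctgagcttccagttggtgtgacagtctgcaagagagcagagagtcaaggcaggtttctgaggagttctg
Rsad2: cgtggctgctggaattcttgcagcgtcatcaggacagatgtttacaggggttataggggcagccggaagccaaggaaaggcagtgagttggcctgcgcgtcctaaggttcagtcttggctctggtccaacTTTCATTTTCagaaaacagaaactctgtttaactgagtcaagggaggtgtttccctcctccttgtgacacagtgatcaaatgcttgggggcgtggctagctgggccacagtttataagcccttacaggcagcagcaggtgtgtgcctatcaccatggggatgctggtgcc
Ifit3: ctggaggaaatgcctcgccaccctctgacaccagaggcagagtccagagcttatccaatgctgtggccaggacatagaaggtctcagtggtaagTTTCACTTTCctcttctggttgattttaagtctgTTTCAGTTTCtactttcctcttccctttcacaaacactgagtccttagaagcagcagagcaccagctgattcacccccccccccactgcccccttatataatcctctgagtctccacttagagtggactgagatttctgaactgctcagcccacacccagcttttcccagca
Ifitm3: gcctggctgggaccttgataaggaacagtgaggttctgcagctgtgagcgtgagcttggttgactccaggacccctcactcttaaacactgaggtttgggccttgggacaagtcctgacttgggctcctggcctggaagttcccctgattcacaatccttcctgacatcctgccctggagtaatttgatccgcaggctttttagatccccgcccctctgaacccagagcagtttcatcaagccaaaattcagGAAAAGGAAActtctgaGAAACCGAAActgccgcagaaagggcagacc

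The letters searched were found in 3.44% of all 32851 promoters of this length, and in a promoter of 3.99% of their genes. Of the 35 interferon-stimulated genes tested, 27 had a promoter in the table and 14 of these held the motif. It was present in 8 of the 14 with a promoter that were higher in Tfh, in both genes that were lower, and in 4 of the 11 that were not called. The motif thus occurred in genes of both directions. The genes called lower were too few to show whether the motif followed the direction of the difference. Among all genes called, 4.92% of those higher and 4.05% of those lower in Tfh held it in a promoter, against 3.89% of the tested genes. The gamma-activated site, searched as TTC and GAA separated by any 3 bases on both strands, was in 8.30% of all promoters. By gene it was in a promoter of 9.55% of all genes and of 7 of these 27.

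Interferon-stimulated genes are the antiviral genes that type I interferon, and in part interferon-gamma, switches on. Of 35 tested, 20 were higher in Tfh, 2 were lower and 13 were not called in all 3 scalings, and their median difference was 3.24 as deposited and 2.02 after quantile normalization, against 0.85 and -0.20 over all tested genes. Oasl2, an antiviral protein of the oligoadenylate synthetase family, stood at 10.08 and 10.31 in the Tfh arrays and at 2.56 and 2.59 in the Th1 arrays, a difference of 7.62 (SE 0.43, adjusted p = 6.25e-05) and 6.81 after quantile normalization. Both Th1 values are at the background end of the arrays, here meaning near or below 3.13, the median of all values and the level used as the filter. Oasl1 stood at 7.95 and 8.09 against 2.73 and 2.96, Oas2 at 7.08 and 7.07 against 3.46 and 3.55, and the antiviral GTPase gene Mx2 at 5.80 and 6.57 against 2.08 and 2.11. Of the genes with promoters shown above, Ifit1 stood at 10.71 and 11.08 against 2.10 and 5.26, Rsad2 at 10.37 and 10.68 against 3.23 and 4.75, and Ifit3 at 9.99 and 10.48 against 4.11 and 5.32. The groups did not overlap at any of them.

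The Ifitm genes, whose products block virus entry at membranes, ran the other way. Ifitm2 measured 9.13 and 9.06 in Tfh against 12.20 and 11.77 in Th1, a fall of 2.89 (SE 0.47, adjusted p = 0.00286). Ifitm3 stood at 10.42 and 10.26 against 13.88 and 12.69 (-2.95, SE 0.96, adjusted p = 0.0372), a call that ended when any 1 of the 4 arrays was left out (adjusted p from 0.057 to 0.154). Ifitm1 gave 7.31 and 7.30 against 13.62 and 10.27, which was not called as deposited (adjusted p = 0.0913). Bst2, the antiviral tether tetherin, gave 9.46 and 9.55 against 9.88 and 10.02 and was not called either. After quantile normalization Ifitm1 (-6.01, adjusted p = 0.0428) and Bst2 (-1.59, adjusted p = 0.00257) were called lower. As deposited, the count of members lower in Tfh was 2 with every array and 1 when any of the 4 was left out.

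**Figure D3:**
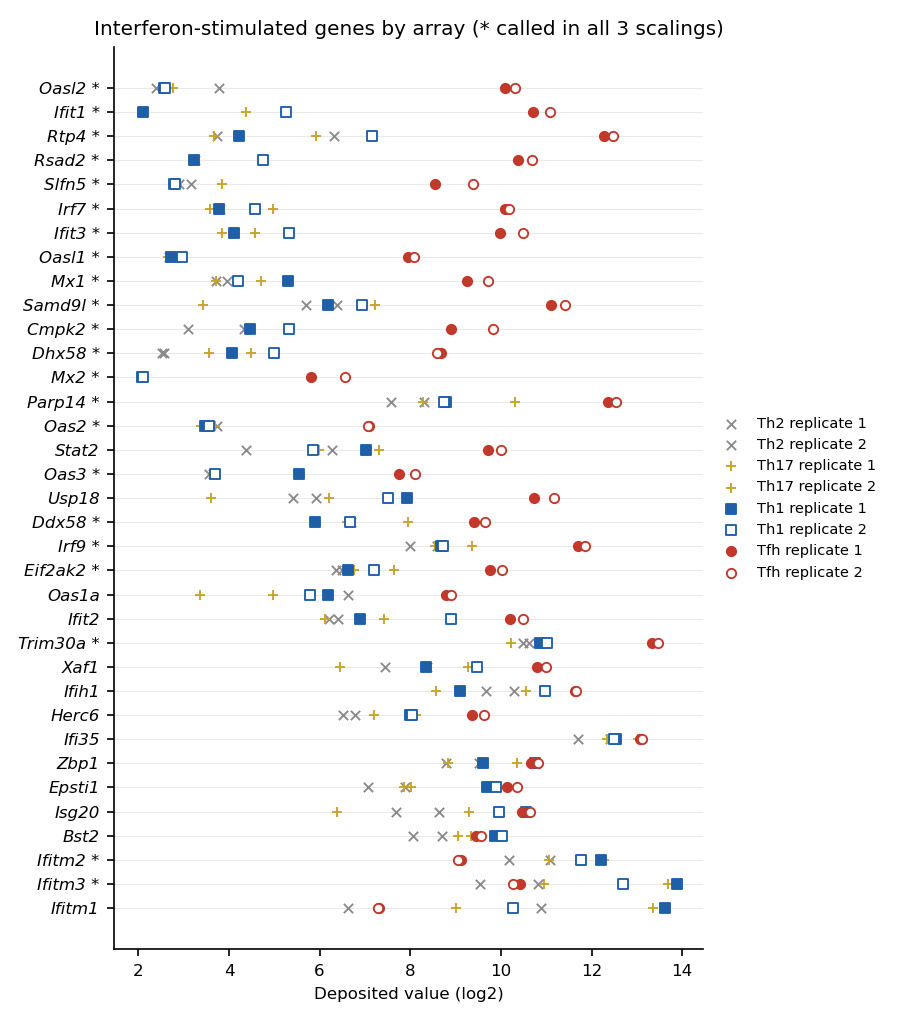
Deposited log2 value (horizontal axis) of the 35 tested interferon-stimulated genes, ordered by the difference between Tfh (circles) and Th1 (squares), with replicate 1 filled and replicate 2 open and the Th2 arrays as grey crosses and the Th17 arrays as yellow plus signs. Stars mark the 22 genes called in all 3 scalings; Ifitm1, Ifitm2 and Ifitm3 are the only genes with Tfh more than 1 log2 unit below Th1.

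Genes that interferon-gamma induces, such as guanylate-binding proteins and antigen-processing genes, were also higher in Tfh in part (5 of 18, against 15.6% of all tested genes). Of these 18, 0 were lower in limma in all 3 scalings and as deposited, and 0 at an unadjusted p under 0.05. Gbp8 measured 12.25 and 12.28 in Tfh against 9.16 and 8.90 in Th1, and Nlrc5, the activator of class I antigen presentation genes, at 12.59 and 12.58 against 9.24 and 9.41. As deposited 8 were higher, and 5 without Tfh replicate 1, Tfh replicate 2 or Th1 replicate 1. Irf8 and the immunoproteasome subunit gene Psmb8 were not called, at 11.81 and 11.69 against 12.29 and 11.86, and at 12.88 and 12.84 against 12.70 and 13.16.

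The Tfh programme was higher in the sorted cells. Of 22 tested genes 13 were higher and 0 were lower in limma (1 at an unadjusted p under 0.05), with a median difference of 2.55 as deposited and 1.91 after quantile normalization. Cxcr5 was the gate of the sort, so its 11.25 and 11.20 in Tfh against 3.34 and 5.37 in Th1 is a check of the labels and no finding. Bcl6 stood at 11.99 and 11.91 against 6.33 and 8.15 (4.71, SE 0.87, adjusted p = 0.00454). Tox, an HMG-box nuclear protein, stood at 11.63 and 11.89 against 3.34 and 5.81. Sostdc1, a secreted antagonist of BMP and Wnt ligands, stood at 8.78 and 8.81 against 2.35 and 2.39, and Cebpa at 7.25 and 7.25 against 2.08 and 2.10. The inhibitory receptor gene Pdcd1 stood at 12.38 and 12.31 against 9.14 and 10.29 (2.63, SE 0.43, adjusted p = 0.00287). In each of these the lowest Tfh array was above the highest Th1 array. Granulocyte and macrophage transcripts, described below, were also high on the Tfh arrays. Their part in these values, that of Cebpa among them, was not tested.

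The products through which Tfh cells act on B cells were not called at the probe sets kept. Il21, the cytokine that drives germinal centre B cells, gave 10.69 and 10.59 in Tfh and 11.79 and 8.86 in Th1, so that the Tfh arrays lay between the Th1 arrays. A second Il21 probe set was 2.23 higher in Tfh. For the probe set kept, the difference was 0.31 (adjusted p = 0.775). It became 1.78 without Th1 replicate 1 (adjusted p = 0.00768) and -1.15 without Th1 replicate 2 (adjusted p = 0.0288). Cd40lg, the ligand that licenses B cells, gave 7.37 and 7.47 against 7.02 and 7.59, a difference of 0.12 (adjusted p = 0.847) that turned to -1.46 after quantile normalization (adjusted p = 0.0433). The costimulator Icos gave 13.64 and 13.45 against 12.34 and 9.08, and missed the threshold (2.83, adjusted p = 0.0515). It passed without Th1 replicate 1 (adjusted p = 0.00197), with a stricter filter (0.0454) and with the mean of its probe sets (0.0372). Rgs16, a brake on chemokine receptor signalling, gave 11.66 and 11.36 against 12.18 and 12.28, a difference under the threshold of 1 as deposited. It was called lower after quantile normalization (-1.41, adjusted p = 0.00237) and after the median shift (-1.11, adjusted p = 0.00471).

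Transcription factors of T cell lineages were higher in Tfh as a group, with 23 of 43 called. In all 3 scalings and as deposited 0 were lower in limma (1 at an unadjusted p under 0.05). Factors named for other helper lineages were among those called higher. Gata3, which directs Th2 differentiation, measured 10.67 and 10.52 in Tfh against 4.95 and 7.74 in Th1 (4.25, SE 0.91, adjusted p = 0.00797). Foxp3, which defines regulatory T cells, stood at 10.79 and 10.73 against 2.37 and 2.40, and Ikzf2, which encodes Helios, at 12.89 and 12.84 against 5.95 and 6.60. Klf2 and Foxo1, which keep T cells quiescent and recirculating, were also higher, by 5.18 (SE 0.43) and 2.75 (SE 0.33), although 1 of the 4 Foxo1 probe sets gave -0.35. The call for Gata3 was lost when the 4 arrays were quantile-normalized and fitted alone (adjusted p = 0.0659). Quantile normalization over the 8 arrays called some factors lower, among them Bhlhe40 (-1.41, adjusted p = 0.0103) and Eomes, given below. Without Th1 replicate 2, 4 factors were called lower in Tfh as deposited.

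Tbx21, which encodes T-bet, was not called, and the Tfh values lay between the Th1 values. It gave 10.66 and 10.59 in Tfh and 10.89 and 9.43 in Th1, a difference of 0.46 (SE 0.54, adjusted p = 0.477). Its rank among all probe sets lay at the 90.2 and 89.9 percentiles in Tfh and the 94.7 and 89.1 percentiles in Th1. The related T-box gene Eomes gave 7.13 and 7.35 against 8.76 and 9.07 and was not called as deposited (adjusted p = 0.0862). After quantile normalization Eomes was called lower (-3.19, adjusted p = 0.0114), and after the median shift it was not (0.0505). The other Eomes probe set pointed the opposite way. Prdm1 gave 7.80 and 7.80 against 10.23 and 5.35, so Th1 replicate 1 was higher and Th1 replicate 2 lower than both Tfh arrays. Stat4, which carries the IL-12 signal, was higher in Tfh as deposited, at 13.03 and 13.05 against 11.51 and 11.95 (1.31, SE 0.17, adjusted p = 0.00111), but the difference was 0.83 after quantile normalization and is not counted among the calls.

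Th1 effector genes were lower in Tfh while Tbx21 was not called. Of 27 genes of the Th1 programme 8 were lower and 1 was higher, against 6.13% and 15.6% of all tested genes. Their median difference was -0.72 as deposited. Ifng measured 11.34 and 11.25 in Tfh against 15.39 and 15.07 in Th1, a fall of 3.93 (SE 0.97, adjusted p = 0.0141). Even in Tfh it lay at the 93.6 and 93.3 percentiles of all probe sets. The adjusted p was 0.0627, 0.0664 and 0.0592 with Tfh replicate 1, Tfh replicate 2 or Th1 replicate 1 left out, so the call was lost, although the values did not overlap. Il12rb2, the inducible signalling chain of the IL-12 receptor, stood at 3.13 and 3.41 against 10.73 and 8.24 (-6.21, SE 0.88, adjusted p = 0.00163). Its partner Il12rb1 differed less, at 7.90 and 7.92 against 9.45 and 9.28. The inhibitory receptor gene Havcr2 (TIM-3) stood at 5.51 and 5.38 against 10.00 and 9.05.

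The interferon-gamma receptor ran the other way. Ifngr2, its signalling chain, measured 6.19 and 6.59 in Tfh against 2.23 and 3.55 in Th1 (3.50, SE 0.43, adjusted p = 9.74e-04), and was the 1 Th1 gene higher in Tfh in all 3 scalings. That call was lost when the 4 arrays were quantile-normalized and fitted alone (adjusted p = 0.0577), and a second probe set of the gene gave 0.06. Ifngr1, the ligand-binding chain, was higher as deposited, at 10.65 and 10.74 against 9.23 and 8.60, and not after quantile normalization (0.76). Cxcr3, the receptor by which Th1 cells reach inflamed tissue, gave 11.30 and 11.23 against 7.06 and 9.60. It too was called as deposited (2.93, adjusted p = 0.0168) and not after quantile normalization, and the call ended without Tfh replicate 1 (adjusted p = 0.0762) or 2 (0.0713). As deposited the list had 4 genes higher in Tfh with all arrays, 2 without either Tfh array and 7 without Th1 replicate 1; the count lower went from 8 to 13 without Th1 replicate 2.

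**Figure D4:**
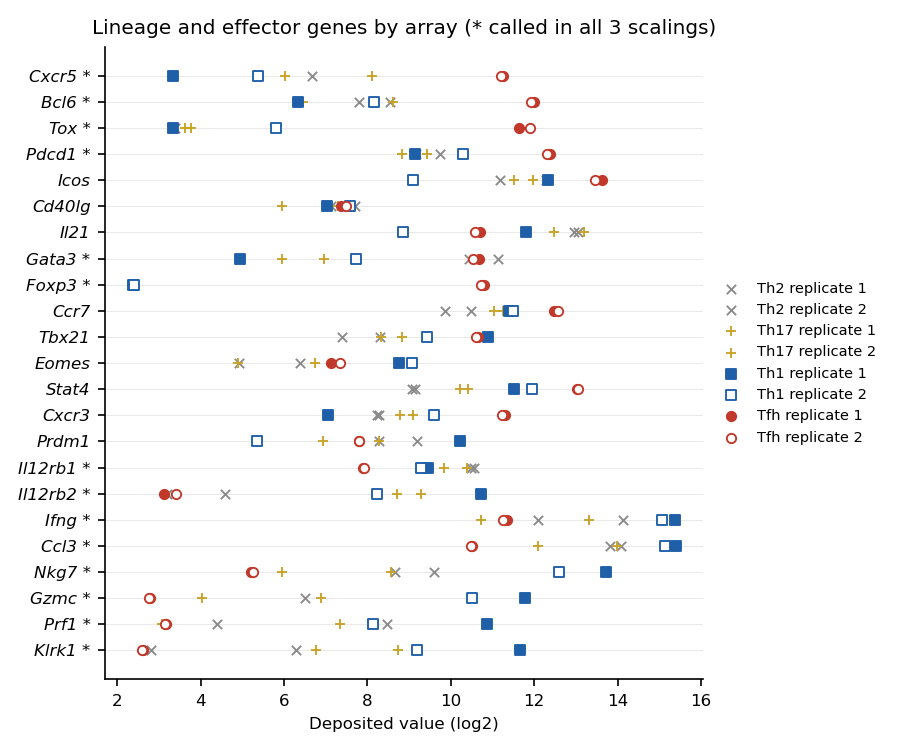
Deposited log2 value (horizontal axis) of 23 lineage and effector genes in each array, with Tfh as circles, Th1 as squares (replicate 1 filled, replicate 2 open) and the Th2 arrays as grey crosses and the Th17 arrays as yellow plus signs. The Tfh pairs nearly coincide, the Th1 pairs of Prdm1, Il21 and Icos lie about 3 or more units apart, and Tbx21 overlaps between Tfh and Th1 while Ifng, Nkg7 and Gzmc do not.

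Genes of cytotoxic granules were lower in Tfh, with 10 of 25 called lower and 4 higher. The share higher was close to the 15.6% of all tested genes, and the share lower was above their 6.13%. Nkg7, a membrane protein of these granules, measured 5.20 and 5.25 in Tfh against 13.73 and 12.59 in Th1 (-7.93, SE 0.89, adjusted p = 6.96e-04). The granzyme gene Gzmc stood at 2.78 and 2.75 against 11.77 and 10.52 (-8.37, SE 1.5, adjusted p = 0.0041), and Gzmd at 2.42 and 2.39 against 7.69 and 10.28. Both are at the background end of the arrays in Tfh. Prf1, the pore-forming perforin, stood at 3.16 and 3.14 against 10.86 and 8.12, and Klrk1, the activating receptor NKG2D of killer cells, at 2.62 and 2.60 against 11.67 and 9.18. The granzyme inhibitors Serpinb9 and Serpinb6b, which protect cells from their own granzymes, were lower as well, by 1.69 (SE 0.15) and 2.40 (SE 0.32).

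Not all granzymes moved alike. Gzmk measured 8.32 and 8.51 in Tfh against 4.59 and 2.55 in Th1 (4.84, SE 0.61, adjusted p = 0.00104), while Gzma fell by 4.57. Lamp2, a structural protein of lysosomes and granules in most cells, was higher by 2.15 (SE 0.21). The calls for Gzmd, Prf1 and Gzma ended without Tfh replicate 1, Tfh replicate 2 or Th1 replicate 1 (adjusted p from 0.0521 to 0.128), that for Gzmd also without Th1 replicate 2 (0.141), and a second Prf1 probe set gave 0.02. The call for Gzmk was lost when the 4 arrays were quantile-normalized and fitted alone (adjusted p = 0.0531). As deposited the count lower was 10 with all arrays and 6 without either Tfh array or without Th1 replicate 1.

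Of 29 cytokines secreted by effector T cells, 5 were lower, 1 was higher and 23 were not called in all 3 scalings. Il3, a growth factor of basophils and mast cells, had the largest fall of all the genes ranked, at 5.89 and 5.57 in Tfh against 14.55 and 14.94 in Th1 (-9.02, SE 1.04, adjusted p = 7.64e-04). For Csf2 (GM-CSF, a myeloid growth factor) the values were 8.74 and 8.65 against 13.13 and 13.79, and for Osm (oncostatin M, of the IL-6 family) 6.60 and 6.85 against 9.78 and 8.45. Il16, a chemoattractant for CD4 cells, was the 1 gene higher, at 12.28 and 12.25 against 9.11 and 7.98, although 1 of its 4 probe sets gave -0.07. Il17a, the signature of Th17 cells, gave 10.98 and 10.98 against 9.31 and 9.51 and was not called (1.57, adjusted p = 0.0569). As deposited 2 were higher, and 4 without either Th1 array.

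Some chemokine genes were lower in Tfh and a few were higher. The 4 called lower in Tfh were Ccl3, Ccl4, Ccl1 and Xcl1, which attract leukocytes. Ccl3 stood at 10.50 and 10.47 against 15.40 and 15.14, and Ccl4 at 9.66 and 9.63 against 13.88 and 13.05. Ccl1 fell by 5.01 (SE 0.73) and Xcl1 by 3.51, the last a call that ended when any 1 of the 4 arrays was left out (adjusted p from 0.11 to 0.148), without the trend in the variance model (0.0514) and with the replicate number as a block (0.0557). The interferon-induced ligands of CXCR3 were higher. Cxcl10 stood at 13.24 and 13.38 in Tfh against 6.20 and 7.33 in Th1 (6.55, SE 0.83, adjusted p = 0.00107), and Cxcl11 at 5.68 and 5.55 against 2.54 and 2.55, although its other probe set gave 0.03. Cxcl9 gave 9.69 and 9.45 against 2.63 and 5.59, called as deposited (adjusted p = 0.0145) and not after quantile normalization. In all, 2 of 18 chemokines were higher and 4 lower. The share higher was below the 15.6% of all tested genes, and the share lower was above their 6.13%.

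Of 20 homing receptors 7 were higher in Tfh and 0 were lower in limma in all 3 scalings (1 at an unadjusted p under 0.05). After quantile normalization Ccr1 (-3.20, adjusted p = 0.0377) and Cxcr2 (-1.60, adjusted p = 0.0116) were called lower. Ccr6, a receptor of Th17 cells and B cells, stood at 10.77 and 10.59 against 2.78 and 2.98 (7.80, SE 0.54). S1pr4, a receptor for the lipid that guides lymphocytes out of tissue, was higher by 2.76 (SE 0.34). Ccr7, which holds T cells in the T cell zone, gave 12.47 and 12.56 against 11.40 and 11.48. That was called as deposited (1.07, adjusted p = 0.00662) and not after quantile normalization (0.49), and a shift to the median of the tested genes turned its sign (-0.13). Without Th1 replicate 2, 3 receptors were called lower as deposited.

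Receptors for cytokines had 9 of 33 higher and 3 lower in Tfh, against 15.6% and 6.13% of all tested genes. Il6ra, which binds the IL-6 that promotes Tfh differentiation, stood at 9.46 and 9.61 against 3.35 and 4.21 (5.75, SE 0.39, adjusted p = 1.2e-04). Il1r1 stood at 9.57 and 9.42 against 4.06 and 4.09, although a second probe set gave -0.17, and Tgfbr2, the ligand-binding chain of the TGF-beta receptor, at 12.97 and 12.98 against 9.97 and 9.60, where another Tgfbr2 probe set gave -0.04. Il2ra, the high-affinity chain of the IL-2 receptor, was lower, at 10.01 and 9.99 against 12.43 and 10.96 (-1.69, adjusted p = 0.0282). Its call was lost with Tfh replicate 1 (adjusted p = 0.103), Tfh replicate 2 (0.105) or Th1 replicate 1 (0.0741) left out, and with the Tfh and Th1 arrays fitted alone (0.0614).

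Costimulatory and inhibitory receptors were called about as often as all tested genes, with 6 of 31 higher and 1, Havcr2, lower. Beside Pdcd1 the higher genes included Tnfrsf25, a receptor that costimulates T cells, at 9.84 and 9.97 against 5.97 and 5.97, and Cd200r1, an inhibitory receptor, at 6.22 and 6.36 against 3.10 and 2.30. Ctla4 gave 12.98 and 12.99 against 12.44 and 10.27 and was not called. As deposited 10 were higher, and 5 without either Tfh array. Of 27 integrins and adhesion molecules 8 were higher and 1 was lower, against 15.6% and 6.13% of all tested genes. Itgb8, whose product activates TGF-beta, stood at 10.53 and 10.77 against 3.36 and 3.62, and Itgae (CD103) at 8.32 and 8.35 against 3.24 and 3.79, while the tetraspanin gene Tspan4 fell by 5.26 (SE 0.40).

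T cell receptor signalling genes were higher in part. Of 34 receptor and proximal signalling genes 11 were higher and 0 were lower in limma (and 0 by unadjusted p under 0.05). Nfatc3, a calcium-regulated transcription factor, stood at 12.55 and 12.66 against 9.76 and 9.71, and Dgka, a brake on this signal, at 13.17 and 13.11 against 10.20 and 10.13. The kinase gene Csk, which restrains the receptor's first kinase, was higher by 2.37 (SE 0.21), and the receptor chain Cd247 by 1.54 (SE 0.14), although another Cd247 probe set gave -0.06.

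The early response to the receptor went both ways, although only the Tfh cells are labelled as restimulated. Of 41 genes 12 were higher and 4 lower, against 15.6% and 6.13% of all tested genes. Fosb, a component of AP-1, stood at 6.22 and 6.56 against 2.10 and 2.11, and Zfp36, which speeds decay of cytokine messages, at 12.19 and 12.07 against 7.76 and 8.13. Nfkbiz, a nuclear NF-kB regulator, was higher by 2.77 (SE 0.15) and the phosphatase gene Dusp1 by 3.03 (SE 0.29). Fosl1, another AP-1 component, was lower, at 3.49 and 3.61 against 7.88 and 7.78, and so was Spry2, an inhibitor of Ras signalling, at 3.04 and 3.01 against 8.02 and 8.72, although another Spry2 probe set gave -0.08. Rgs1 fell by 1.10, but not past the threshold with Tfh replicate 2 (adjusted p = 0.0648) or Th1 replicate 1 (0.0532) left out. Myc gave 11.25 and 11.18 against 12.25 and 11.86, a difference under the threshold of 1 as deposited. It was called lower after quantile normalization (-1.58, adjusted p = 0.00088) and after the median shift (-1.23, adjusted p = 0.00214). As deposited the count lower was 4, and 2 without Tfh replicate 2.

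Genes of naive and recirculating T cells were higher for 8 of 22, with 0 lower in limma (and 0 by unadjusted p under 0.05). They include Klf2, at 11.87 and 11.98 against 6.19 and 7.30, and Foxo1 and Il6ra above. The survival gene Bcl2 gave 10.54 and 10.60 against 11.66 and 11.33, and Igfbp4 gave 7.49 and 7.41 against 9.67 and 9.23. Neither was called. Against 15.6% and 6.13% of all tested genes, regulatory T cell genes were higher for 5 of 17 and lower for 1, Il2ra. Beside Foxp3 and Ikzf2 they include Nt5e (CD73), which makes adenosine, at 12.40 and 12.22 against 2.89 and 4.60, although a further probe set of Nt5e gave -1.33. Foxp3 was thus high in the sorted group together with Bcl6. Its part in the other differences was not tested.

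Of 40 DNA replication genes 13 were lower and 0 higher in limma (5 at an unadjusted p under 0.05). Among all tested genes 6.13% were lower and 15.6% higher. Orc1, the origin recognition subunit that loads before S phase, stood at 3.50 and 2.79 against 8.25 and 8.09 (-5.02, SE 0.40, adjusted p = 2.13e-04), and Cdc6, which licenses origins, at 7.64 and 7.74 against 10.25 and 10.49. Pcna, the replication clamp, differed by -0.70 as deposited, under the threshold of 1, and by -1.09 after the median shift. As deposited the count lower was 13 with all arrays, 7 without either Tfh array and 6 without Th1 replicate 2. Of 39 mitosis genes 3 were lower, a share close to that of all tested genes, and 1 was higher. Cdk1, the mitotic kinase, stood at 10.19 and 10.06 against 11.26 and 12.22, and the phosphatase gene Cdc25b, which activates it, at 10.27 and 10.45 against 7.01 and 8.05. The mitotic count lower, 3 as deposited, was 1 without either Tfh array or Th1 replicate 2 and 12 without Th1 replicate 1, and the count higher went from 2 to 7 without Th1 replicate 2.

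Glycolysis genes were lower for 9 of 28, against 6.13% of all tested genes. In limma 0 were higher in all 3 scalings (3 as deposited, and 3 at an unadjusted p under 0.05). Hk2, the hexokinase of proliferating cells, stood at 8.92 and 8.75 against 12.25 and 10.72 (-2.65, SE 0.49, adjusted p = 0.00458). Vegfa, an angiogenic factor induced by low oxygen, stood at 2.80 and 2.79 against 8.74 and 6.95, and Pgk1, a glycolytic kinase, at 12.83 and 12.84 against 14.37 and 14.01. Of 37 genes of the amino acid response and tRNA charging 3 were lower and 0 higher in all 3 scalings in limma (1 as deposited, and 2 at an unadjusted p under 0.05). The share lower was close to the 6.13% of all tested genes. Asns, asparagine synthetase, stood at 8.29 and 8.45 against 12.52 and 10.91, and Cth, which makes cysteine, at 2.63 and 2.60 against 10.30 and 7.19. The calls for Asns and for the glycine transporter gene Slc6a9 ended without either Tfh array or without Th1 replicate 1, which left 1 of the 3 genes as deposited. None of 56 respiratory chain genes was called in all 3 scalings (13 higher and 8 lower at an unadjusted p under 0.05), nor any of 21 cholesterol synthesis genes (3 and 1). Without Th1 replicate 1, 9 cholesterol synthesis genes were called higher as deposited, and without Th1 replicate 2, 4 were called lower.

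**Figure D5:**
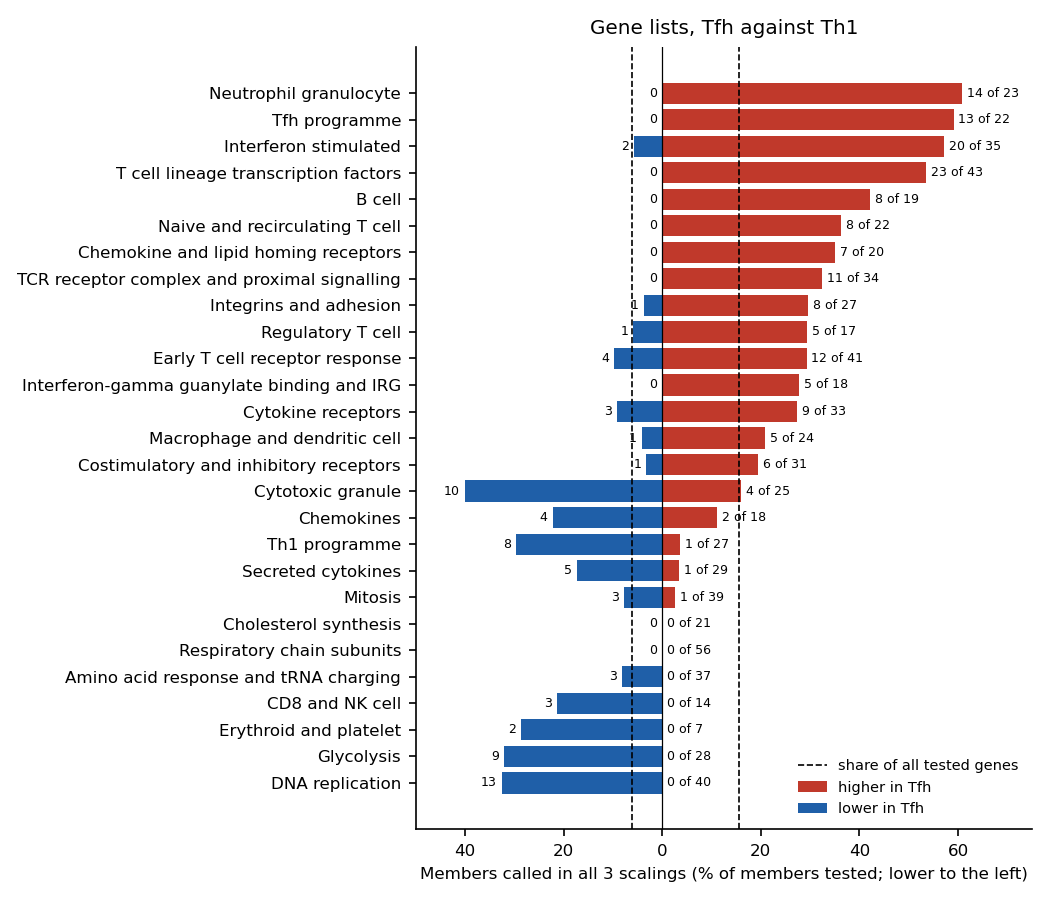
Members of 27 gene lists called higher (right) and lower (left) in Tfh in all 3 scalings, as a percentage of the members tested (horizontal axis), with counts beside the bars. Dashed lines mark the shares of all tested genes, 15.6% and 6.13%; the neutrophil, Tfh and interferon-stimulated lists reach furthest right, and the cytotoxic granule, DNA replication and glycolysis lists furthest left.

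Of the 14 genes with the largest rises in Tfh, 9 were transcripts of granulocytes or macrophages and were not sorted for. S100a8, a calcium-binding protein of neutrophils, measured 14.93 and 14.85 in Tfh against 2.97 and 3.10 in Th1 (11.85, SE 2.62, adjusted p = 0.00922). Its partner S100a9 stood at 14.38 and 14.36 against 2.63 and 2.61, and the granule protein genes Ngp and Camp at 13.13 and 13.02 against 2.13 and 2.15, and at 11.48 and 11.36 against 2.22 and 2.24. All 4 were at the background end of both Th1 arrays. Lcn2, Ltf and Chil3, further granulocyte products, were higher by 9.49, 8.90 and 9.28. The call for Chil3 ended without Tfh replicate 1 (adjusted p = 0.0505) or 2 (0.051). Lyz2, the lysozyme of myeloid cells, stood at 11.42 and 11.31 against 1.86 and 4.64, and Lyz1 at 12.92 and 12.73 against 2.76 and 6.57, although another Lyz1 probe set gave 0.08. S100a9, Chil3, Lyz1 and Lyz2 were also high on some Th2 and Th17 arrays, where the highest values were 10.48, 13.79, 12.20 and 10.26. For Chil3 this was above both Tfh arrays. S100a8 was close within the Tfh and Th1 pairs, so its SE of 2.62 came from Th2 or Th17 replicates that lay far apart. Some of those arrays were thus well above the background end for S100a8 too. The other genes were Foxp3, Nt5e and Ccr6, described above, and the sialyltransferase gene St6galnac3 (7.93) and the homeobox gene Pou6f1 (7.92), of which other probe sets gave as little as 0.07 and 0.32.

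Whole lists for other cell types moved with the groups as follows. Of 23 neutrophil genes 14 were higher and 0 lower in limma (and 0 by unadjusted p under 0.05), and the mean level of the 24 on the array was 8.37 and 8.33 in Tfh against 3.18 and 3.27 in Th1. On the Th2 arrays the neutrophil level was 6.12 and 3.78, and on the Th17 arrays 4.31 and 3.20. Of 19 B cell genes 8 were higher and 0 lower (and 0 by unadjusted p under 0.05), with a mean level over 23 of 6.92 and 6.90 against 4.02 and 5.14. The B cell level was 5.97 and 6.90 on the Th2 arrays and 6.44 and 5.47 on the Th17 arrays, so it was not particular to the Tfh arrays. Among the genes that define B cells, Cd79a stood at 8.02 and 7.93 and Ms4a1 at 7.90 and 7.97 in Tfh, while Pax5 (2.38 and 2.36) and Blk (2.80 and 2.61) were at the background end. Ighm (of which another probe set gave -0.10) stood at 12.83 and 12.84 against 7.78 and 10.49. It gave 13.27 and 13.85 in Th2 and 13.22 and 11.78 in Th17. The class II gene H2-Aa stood at 11.55 and 11.42 against 3.35 and 8.30, with 10.07 and 11.21 in Th2 and 9.52 and 9.89 in Th17. Both calls ended without either Tfh array and when the 4 arrays were quantile-normalized and fitted alone, that for H2-Aa also with the Tfh and Th1 arrays fitted alone as deposited. As deposited the B cell count higher was 12, and 6 without either Tfh array.

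Of 24 macrophage and dendritic cell genes 5 were higher and 1, Batf3, was lower, against 15.6% and 6.13% of all tested genes. Their mean level over 31 was 5.84 and 5.78 in Tfh against 3.48 and 4.15 in Th1, with C1qa, Cd163 and Siglech at the background end of all 4 arrays. That level was 7.21 and 5.27 on the Th2 arrays and 6.11 and 4.62 on the Th17 arrays, so it was not particular to the Tfh arrays. As deposited the count higher was 11, 6 without either Tfh array and 7 without Th1 replicate 1. Of 14 CD8 and NK cell genes 0 were higher in limma (4 at an unadjusted p under 0.05) and 3 were lower, with a mean level over 17 of 5.22 and 5.22 against 6.72 and 6.23. As deposited the count lower was 1 without either Tfh array, and 1 was higher without Th1 replicate 1. Cd8a gave 4.79 and 4.90 against 4.06 and 3.76, and the NK receptor gene Ncr1 was at the background end of all 4. Of 7 erythroid and platelet genes 2 were lower, both of them also used elsewhere: the transferrin receptor gene Tfrc, which dividing cells need for iron, at 11.50 and 11.45 against 13.68 and 13.85, and Itga2b at 2.04 and 2.03 against 3.35 and 3.28. Cd3e, Cd4 and the cell type markers Cd79a, Ms4a1, Pax5, Blk, C1qa, Cd163, Siglech and Ncr1 are named as defining markers and were chosen after their values were seen. Globin and haem synthesis genes were at the background end of all 4 arrays. The part of other cells in the results for T cell genes was not tested.

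The largest falls in Tfh covered several kinds of gene beside the granule and cytokine genes above. Crabp2, a carrier of retinoic acid, stood at 3.40 and 2.69 against 11.73 and 11.19 (-8.41, SE 0.44, adjusted p = 4.75e-05). Hbegf, a growth factor of the EGF family, stood at 3.56 and 3.71 against 9.49 and 10.57, and Hacd1, an enzyme of very long chain fatty acid synthesis, at 3.53 and 3.51 against 9.92 and 9.54. Batf3, an AP-1 factor, stood at 4.02 and 3.46 against 12.10 and 7.63, which missed the threshold with Tfh replicate 2 left out (adjusted p = 0.0543). Rai14 fell by 6.73, though another probe set gave -0.17. All 4 leading genes of this kind with 1 direction in every probe set, Crabp2, Hbegf, Hacd1 and Batf3, were high on the Th2 and Th17 arrays too.

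Eif2s3y, a gene of the Y chromosome, was also among the 14 largest falls, and the labels give no sex. It measured 3.12 and 3.08 in Tfh against 10.98 and 9.88 in Th1 (-7.33, SE 2.58, adjusted p = 0.0474), a call that ended without any 1 of the 4 arrays and without the trend in the variance model. Other probe sets of Eif2s3y, Kdm5d and Uty gave 0.07, -0.12 and -0.36. Kdm5d and Uty, Y-linked genes chosen after their values were seen, stood at 2.31 and 2.28 against 7.28 and 5.43, and at 2.43 and 2.40 against 5.99 and 4.67. Xist, which silences 1 X chromosome in female cells and was chosen likewise, gave 13.83 and 14.09 in Tfh and 2.79 and 11.09 in Th1. The Tfh arrays thus held Xist and no Y-linked signal, Th1 replicate 1 the reverse, and Th1 replicate 2 both. What part this has in other differences was not tested.

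Th1 cells were also set against the mean of the Th2 and Th17 cultures, which were activated with the same peptide for the same 5 days and whose contrast uses no Tfh values. Far fewer genes were called, 23 higher in Th1 (0.206%) and 45 lower (0.403%), 68 in all. Leaving out either Tfh array, which enters the spread alone, left 10, and leaving out Th1 replicate 1 or 2 gave 171 and 109. This comparison shares its Th1 arrays with the one above, so the values stand side by side and no overlap is drawn. Stat4 was higher in Th1 than in those cultures by 2.02 (SE 0.14, adjusted p = 0.00766), with values of 9.15 and 9.08 in Th2 and 10.22 and 10.40 in Th17. Its deposited values were higher still in Tfh, a difference not called in all 3 scalings. Serpinb9 and Serpinb6b were higher in Th1 by 2.39 and 2.99 and lower in Tfh. Ifngr2, Il1r1, Cd200r1 and Itgae were lower in Th1 than in those cultures, with differences of -2.91, -3.74, -4.18 and -2.27, and higher in Tfh than in Th1. Unlike Stat4, Ifng and Tbx21 were not called here. Ifng differed by 2.67 (adjusted p = 0.281) and Tbx21 by 1.96 (adjusted p = 0.177), although both Th1 arrays lay above all 4 others at each of them.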

How the data were processed

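Expression was measured on 8 arrays. The deposited values are log2 signals that the authors made with GCRMA, per the submitters' processing notes, in a version not given in the sources used here. Each gene symbol kept the probe set of highest mean value. A gene was tested if it exceeded 3.13, the median of all values, on at least 2 arrays. The groups were fitted together in limma 3.58.1 (R 4.3.3) with a variance trend, Benjamini-Hochberg adjustment and 4 residual degrees of freedom, and again after a median shift and after quantile normalization. Named genes were the 14 largest changes each way among genes called in all 3 scalings without overlap of the groups; 16 lineage genes whether or not called; and, of each list, up to 4 members each way with the smallest adjusted p, called or not (for other cell types also the 4 highest in each group). Any further gene is stated as chosen after its values were seen. Genes and lists were chosen with earlier results of these data known. A test on simulated data for 11178 genes changed 50 genes each by 1, 2, 3 and 4 log2 units. The fit recovered 24%, 74%, 72% and 92% of them and called 11 unchanged genes. The simulated arrays had 1 distribution, 1 spread per gene and few changed genes. The real arrays differ in each of these, so the rates cannot be carried over to them. Alternatives covered scaling, filter, probe set, variance model, replicate block and each array left out.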

Additional observations from a re-analysis of the deposited data

How the results depend on the processing

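The counts of genes that differed between Tfh and Th1 depended on the scaling. Against 4780 higher and 689 lower as deposited, quantile normalization over the 8 arrays gave 1747 and 2378, quantile normalization of the 4 arrays fitted alone 1765 and 2391, and a shift to a common array median 3544 and 1160. A shift to the median of the tested genes, chosen after seeing the data, gave 1610 and 3517. The share of calls that were higher was 87.4% as deposited, and 42.35%, 75.34% and 31.4% with quantile normalization, the array median and the median of tested genes. A threshold of 2 log2 units gave 2245 and 286. Leaving out 1 array gave 4029 to 4668 higher and 472 to 726 lower. For Th1 against the mean of Th2 and Th17 the count of 68 became 40 at 2 log2 units, 10 with the Tfh arrays averaged as 1 replicate, and 10 to 171 with 1 array left out. Deviations of same-numbered arrays correlated at 0.015 for Tfh and Th1, 0.004 for Th1 and Th2, 0.255 for Th1 and Th17 and 0.268 for Th2 and Th17, so the numbers were not taken to pair the groups, and a fit with the replicate block gave 4827 higher, 712 lower and 52 in the Th1 comparison. Some named genes changed sign between the deposited values and another setting, counted where either fit called them. With the shift to the median of tested genes these were Ccr7 (-0.13), Klra1 (-1.06), Pttg1 (-0.097), Slc38a1 (-0.045) and Slc4a1 (-1.10). With quantile normalization over 8 and over 4 arrays they were Cd40lg (-1.46 and -1.41) and Zbtb46 (-0.25 and -0.27). Without 1 array, Il21 ranged from -1.15 to 1.78 and Prdm1 from -2.43 to 2.45. The cause was not tested. Signal near the background limits how far a low value in either group can be read.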
